A study of Mus musculus with 6 samples.

Results

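The 10 genes described here encode proteins with which macrophages stimulate or restrain T cells, or are themselves held in check: Cd40, Cd80, Cd86, Icosl, Cd274, Pdcd1lg2, Lgals9, Havcr2, Sirpa and Cd47. They were found by gene symbol in 6 expression tables of 17067 genes each, and all 10 were listed. Most are ligands, while Cd40, Havcr2 and Sirpa encode receptors on the macrophage itself. The tables came from RNA sequencing of CD45+CD11b+F4/80+ cells sorted from inflamed colons of C57BL/6 mice aged 10 weeks, in which dextran sulfate sodium (DSS) harms the gut lining. One genotype was Gsdmd-/-, without the pyroptosis pore protein gasdermin D (3 samples), and the other was wild type (WT, 3 samples). Mice of both genotypes received DSS, so there was no group without colitis. How the Gsdmd allele was made, the dose and days of DSS, and whether the samples of a group were separate or pooled mice were not stated. P-values therefore reflect only how far these samples varied, and that variation may be technical.

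A T cell that meets its antigen needs a second, co-stimulatory signal, given mainly when CD80 and CD86 on an antigen-presenting cell bind CD28. The same pair binds CTLA-4, which opposes that signal, and ICOSL binds the related receptor ICOS. CD40 receives CD40 ligand from helper T cells and drives NF-kB signalling and macrophage activation. PD-L1 (Cd274) and PD-L2 (Pdcd1lg2) bind PD-1 and dampen T cells, and galectin-9 (Lgals9) is a described ligand of TIM-3 (Havcr2). CD47, present on most cells, binds SIRP alpha (Sirpa) on macrophages and inhibits phagocytosis. In the colon, macrophages and dendritic cells use these molecules to balance tolerance to the microbiota against inflammation.

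Estimated depth was 20.4 M to 20.6 M fragments in Gsdmd-/- and 20.1 M to 20.4 M in WT samples. Values were read as FPKM (fragments scaled to transcript length and library depth), which can be compared between genes. Gsdmd was at 28.5, 29.0 and 29.7 FPKM in Gsdmd-/- samples and at 97.7, 99.4 and 97.4 FPKM in WT samples, so every Gsdmd-/- sample lay below every WT sample. Of 10005 tested genes, 40.6% rose and 36.9% fell in Gsdmd-/- samples (limma on log2(FPKM + 1), adjusted p under 0.05), 77.5% in all. In 79.4% of tested genes the genotypes did not overlap. Across 9853 genes the log2 change fell with transcript length (Spearman rho -0.652, a description across genes). A smooth trend on length and GC content accounted for 50.7% of the spread (variance) in log2 change. After its removal 30% of genes rose and 31.4% fell, 61.3% in all. The length used for this was that of the longest coding transcript. Where the median coding transcript changed a call or a direction among the 10 genes, both values are given.

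The sort markers were present: Ptprc (CD45) averaged 57.9 FPKM in Gsdmd-/- and 92.4 FPKM in WT samples, Itgam (CD11b) 91.3 and 176 FPKM, and Adgre1 (F4/80) 216 and 291 FPKM. These 3 are among 6 of 10 tested macrophage markers that fell, and another 3 rose, beside 36.9% and 40.6% of all tested genes. Those that rose were Fcgr1, Cd68 and Lyz2 (log2 changes 0.35, 0.33 and 0.13), of which Cd68 and Lyz2 had log2 changes of -0.10 and -0.15 with the trend removed. With the trend removed 1 marker rose and 9 fell, beside 30% and 31.4% of all genes. In values rescaled to the same total in every sample (TPM) 2 rose and 8 fell, beside 25% and 51%. The 11 markers summed to 8912 to 8983 FPKM in Gsdmd-/- and 8063 to 8554 FPKM in WT samples, mostly Lyz2 and Cd68. All genes together summed to 551502 to 565388 FPKM in Gsdmd-/- and 476271 to 485411 FPKM in WT samples. List sums here are not scaled to these totals, so a higher sum is not by itself a higher share. Dendritic cells carry many of the same co-stimulatory genes. The summed level of 12 dendritic cell markers was 101 to 106 FPKM in Gsdmd-/- and 109.9 to 111 FPKM in WT samples. Its defining genes Flt3 and Zbtb46 averaged 0.137 and 0.25 FPKM in Gsdmd-/- samples and 0.1 and 0.283 FPKM in WT samples. Of 6 tested, 3 rose and 1 fell, beside 40.6% and 36.9% of all tested genes. The counts were 4 and 1 with the trend removed, beside 30% and 31.4%, and 2 and 1 in TPM, beside 25% and 51%. Fscn1 and Ccr7, markers of mature dendritic cells, rose by 1.03 and 0.43 on the log2 scale and Cd209a by 0.24. With the trend removed their log2 changes were 0.75, 0.16 and 0.11, and that of Cd209a did not pass (limma, adjusted p = 0.164). Ccl22, made by macrophages too and the most abundant of the list, fell by 0.39 (65.4 FPKM in Gsdmd-/- and 86.1 FPKM in WT samples). Markers of T and NK cells summed to 15.2 to 16.7 FPKM in Gsdmd-/- and 9.51 to 10.1 FPKM in WT samples, with the defining Cd3e at 0.02 and 0.01 FPKM. The most abundant of these were Lck and Cd8b1, both under 10 FPKM. Markers of B and plasma cells stayed under 1 FPKM in sum in every sample. Neutrophil markers summed to 47.0 to 51.1 FPKM in Gsdmd-/- and 36.4 to 40.4 FPKM in WT samples, mostly Csf3r and Mmp8, with Ly6g at 0 and 0.02 FPKM. Epithelial markers summed to 2.12 to 2.34 FPKM in Gsdmd-/- and 3.13 to 3.57 FPKM in WT samples, and Krt8 was at 0 and 0.01 FPKM. Fibroblast and smooth muscle markers summed to 101 to 102 FPKM in Gsdmd-/- and 36.6 to 37.6 FPKM in WT samples, led by Bgn and Sparc. Of the same list, Pdgfra averaged 0.287 FPKM in Gsdmd-/- and 0.183 FPKM in WT samples, Pdgfrb 0.613 and 0.43 FPKM, and Lum 0.08 and 0.113 FPKM. The part of these cells in the results below was not tested. In bulk RNA, fewer cells of a type and less RNA per cell cannot be told apart.

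All 10 genes passed the filter on low values. Of them 3 rose (Cd40, Lgals9 and Cd86), 4 fell (Cd80, Cd274, Cd47 and Pdcd1lg2) and 3 were not past the threshold (Sirpa, Icosl and Havcr2), 7 of 10 beside 77.5% of all tested genes. The share that changed was thus near the background. After removal of the length and GC trend 3 of the 10 rose and 3 fell, beside 61.3% of all genes changed. In values rescaled to TPM (transcripts per fixed total, equal in every sample) 1 rose and 6 fell, beside 25% and 51% of all genes, 76% in all. The median log2 change was -0.08 over the 10 genes and 0.03 over all tested genes. Summed over the 10 genes, the level was 1822, 1845 and 1835 FPKM in Gsdmd-/- samples and 1767, 1802 and 1788 FPKM in WT samples, a smaller difference than that of Cd40, Cd274 or Lgals9 taken alone. These sums were not scaled to the total over all genes, which was higher in every Gsdmd-/- sample than in any WT sample. Of the 10, Cd40 and Cd80 alone kept their direction and stayed past the threshold in each of the 16 alternative settings tried.

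The genes spanned more than 2 orders of magnitude, and their order as deposited differed between genotypes at the top. In Gsdmd-/- samples Lgals9 (544 FPKM) and Cd274 (521 FPKM) led and their samples overlapped. In WT samples Cd274 (612 FPKM) lay above Lgals9 (447 FPKM) with no overlap. Relative to the trend at the longest transcript, neither Lgals9 nor Cd274 changed past the threshold (log2 changes -0.03 and -0.01). Cd40 lay just above Sirpa in Gsdmd-/- samples and below it in WT samples, in both cases without overlap. Cd47, Cd86 and Cd80 followed in that order in both genotypes. Havcr2, Icosl and Pdcd1lg2 were lowest, between 3.61 and 5.64 FPKM in Gsdmd-/- and between 4.0 and 5.64 FPKM in WT samples. Havcr2 and Icosl overlapped in WT samples.

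**Figure D1:**
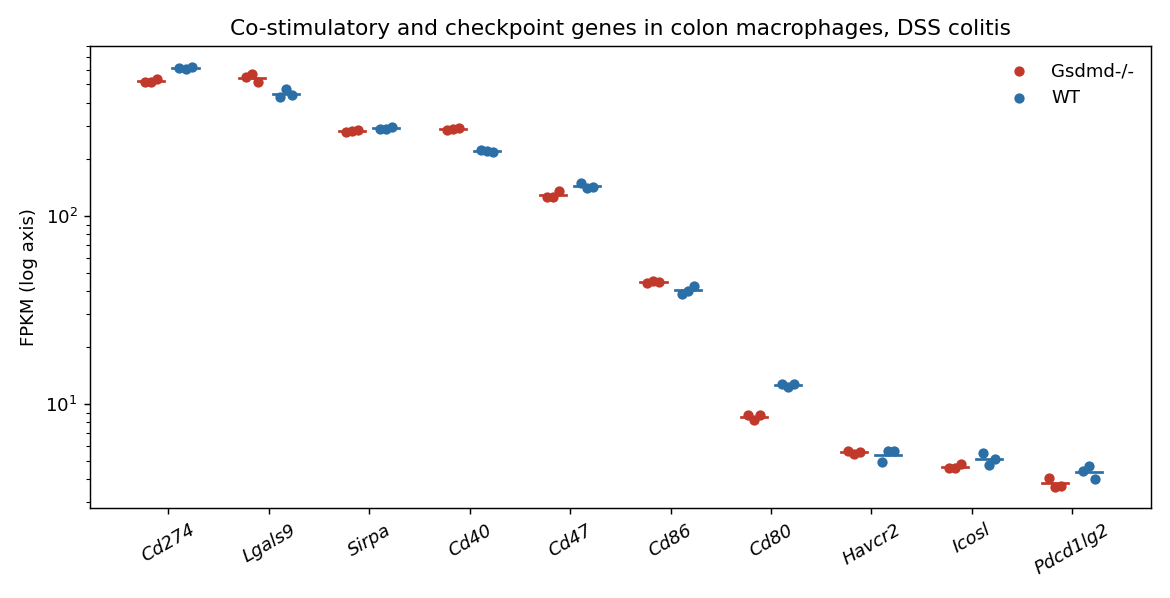
Level of each gene in FPKM (log axis) in 3 Gsdmd-/- (red, left) and 3 WT (blue, right) samples, with short lines at the means, ordered by the WT mean. Cd40 and Lgals9 sit higher in Gsdmd-/- samples and Cd80 and Cd274 lower, while Havcr2, Icosl and Pdcd1lg2 overlap between genotypes.

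Upstream sequences from RefSeq (GRCm38.p6) were found for 7 of the 10 genes: Cd80, Cd274, Pdcd1lg2, Icosl, Havcr2, Lgals9 and Cd47. Those of 4 genes are printed, a ligand of CD28, both ligands of PD-1, which are neighbouring genes on chromosome 19, and the most abundant ligand in Gsdmd-/- samples. Each run is the 250 bases before the start that the table gives, which for Cd80 and Cd274 lies inside the gene's annotated span, 5′ to 3′ on the gene's strand. Capitals mark matches, on either strand, to motifs named for factors that act on such genes. These were GAS (TTCNNNGAA, bound by STAT dimers), IRF (GAAA, any 2 bases, GAAA), AP-1 (TGANTCA), PU.1 (GAGGAA) and the NF-kB consensus.
Cd80, chr16:38458683-38458932, plus strand: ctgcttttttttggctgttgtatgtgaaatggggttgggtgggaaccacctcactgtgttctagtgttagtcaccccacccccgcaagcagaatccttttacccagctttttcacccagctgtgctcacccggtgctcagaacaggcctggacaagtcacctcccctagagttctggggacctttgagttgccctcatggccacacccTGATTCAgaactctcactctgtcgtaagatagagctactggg
Cd274, chr19:29367188-29367437, plus strand: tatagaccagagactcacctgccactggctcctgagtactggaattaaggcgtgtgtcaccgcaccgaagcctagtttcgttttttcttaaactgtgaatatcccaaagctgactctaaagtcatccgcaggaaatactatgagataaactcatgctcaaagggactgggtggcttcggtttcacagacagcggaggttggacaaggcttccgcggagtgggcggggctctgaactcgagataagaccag
Pdcd1lg2, chr19:29410669-29410918, plus strand: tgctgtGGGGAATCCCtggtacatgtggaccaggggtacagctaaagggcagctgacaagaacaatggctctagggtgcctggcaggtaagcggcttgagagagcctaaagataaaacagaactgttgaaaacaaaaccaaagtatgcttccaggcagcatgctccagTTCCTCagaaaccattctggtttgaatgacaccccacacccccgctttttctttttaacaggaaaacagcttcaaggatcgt
Lgals9, chr11:78984925-78985174, minus strand: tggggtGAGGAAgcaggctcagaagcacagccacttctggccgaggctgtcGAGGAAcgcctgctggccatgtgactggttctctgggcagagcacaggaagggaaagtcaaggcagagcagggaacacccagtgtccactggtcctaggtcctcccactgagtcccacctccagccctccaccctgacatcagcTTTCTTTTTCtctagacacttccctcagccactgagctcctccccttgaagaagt
The Cd80 window held 1 match, to AP-1, at position -42 from the start. The Cd274 window held none. The Pdcd1lg2 window held an NF-kB match at -244 and a PU.1 match at -82. The Lgals9 window held an IRF match at -55 and PU.1 matches at -244 and -199. No capitals overlapped between motifs in these windows. Among 32851 upstream windows of the same length in the table, 7.02% held GAS, 2.98% IRF, 6.75% AP-1, 23.3% PU.1 and 3.9% NF-kB. The 3 remaining windows, of Icosl, Havcr2 and Cd47, held an AP-1 and a PU.1 match for Havcr2 and none for the other two. A match describes letters only.

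Cd40, the receptor for CD40 ligand, was higher in Gsdmd-/- macrophages. It lies on chromosome 2 at 165055614 to 165071654 in GRCm38.p6. Its level was 286, 288 and 294 FPKM in Gsdmd-/- samples, against 223, 221 and 218 FPKM in WT samples. The lowest Gsdmd-/- sample lay well above the highest WT sample, and samples within a genotype lay close together. It averaged 289 ± 4.46 FPKM in Gsdmd-/- and 221 ± 2.57 FPKM in WT samples (SD, n = 3 each), a ratio of means of 1.31. The log2 change was 0.39 (SE 0.0258, limma, adjusted p = 5.91e-08), and 41.2% of tested genes changed by more. With about 17600 and 13500 fragments behind these means, counting noise was small. The trend at its length and GC content was -0.03, and with it removed the change was 0.42. The change was smaller but still past the threshold in TPM (0.17), after quantile normalization (0.18) and with the trend taken on the median transcript length (0.14, adjusted p = 0.000282).

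Cd80 and Cd86, the B7 ligands of CD28 and CTLA-4, moved in opposite directions on the deposited scale, although Cd86 did not pass in TPM, where its sign was that of Cd80. Cd80 (chromosome 16, 38457430 to 38495958) was at 8.71, 8.20 and 8.77 FPKM in Gsdmd-/- samples and at 12.8, 12.3 and 12.8 FPKM in WT samples. The genotypes stood clearly apart. It averaged 8.56 ± 0.313 FPKM in Gsdmd-/- and 12.6 ± 0.26 FPKM in WT samples (SD, n = 3 each), a ratio of means of 0.677. The log2 change of -0.51 (SE 0.0495, limma, adjusted p = 1.46e-06) was the largest in size of the 10, and 27.2% of tested genes changed by more. The trend at its length and GC was -0.22. Cd80 still fell once the trend was removed, by 0.29 on the log2 scale (adjusted p = 0.000146).

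Cd86 (chromosome 16, 36568956 to 36666158) was at 44.0, 45.3 and 44.8 FPKM in Gsdmd-/- samples, against 38.6, 40.0 and 42.4 FPKM in WT samples. The genotypes did not overlap, but the gap between them was narrow. Cd86 rose by 0.145 on the log2 scale (SE 0.04, limma, adjusted p = 0.00563), and 76.7% of tested genes changed by more. Relative to the trend the change was 0.26 (adjusted p = 0.000148). In TPM it was -0.07 (adjusted p = 0.137) and after quantile normalization 0.08 (adjusted p = 0.108), so the call for Cd86 alone depended on the scaling.

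The ratio of Cd80 to Cd86 within a sample does not depend on the scaling of that library. It was 0.198, 0.181 and 0.196 in Gsdmd-/- samples and 0.332, 0.308 and 0.301 in WT samples. Every Gsdmd-/- sample had less Cd80 per Cd86 than any WT sample. On the log2 scale the ratio averaged -2.38 ± 0.0709 in Gsdmd-/- and -1.67 ± 0.0726 in WT samples (SD, n = 3 each), a difference of -0.71. The exact permutation test gave p = 0.1 (two-sided), the smallest that 3 samples against 3 allow, and 0.12 adjusted over the 6 ratios computed. The difference was -0.60 once the length and GC trend was removed.

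Icosl (chromosome 10, 78069368 to 78079525), the ligand of ICOS, was low in both genotypes. It was at 4.57, 4.59 and 4.80 FPKM in Gsdmd-/- samples, against 5.48, 4.74 and 5.13 FPKM in WT samples, and the genotypes overlapped. Its log2 change was -0.11 (95% interval -0.252 to 0.028, limma, adjusted p = 0.128). About 267 and 294 fragments stood behind the means. Relative to the trend it was -0.21 and past the threshold (adjusted p = 0.0109), and in TPM -0.32 (adjusted p = 0.00139). It did not pass relative to the trend at the median transcript length (-0.14, adjusted p = 0.0638) or after quantile normalization (-0.01, adjusted p = 0.849). Relative to Cd86 in the same sample, Icosl stood at 0.104, 0.101 and 0.107 in Gsdmd-/- samples and 0.142, 0.118 and 0.121 in WT samples, without overlap (log2 difference -0.28, exact permutation p = 0.1). Cd40 per Cd86 differed the other way, at 6.49, 6.37 and 6.57 in Gsdmd-/- samples against 5.78, 5.53 and 5.14 in WT samples (log2 difference 0.24, exact permutation p = 0.1). With the trend removed that difference was 0.16. Relative to the trend at the median transcript length, Cd86 rose more (0.42) than Cd40 (0.14), so this direction depended on the length assumed.

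**Figure D2:**
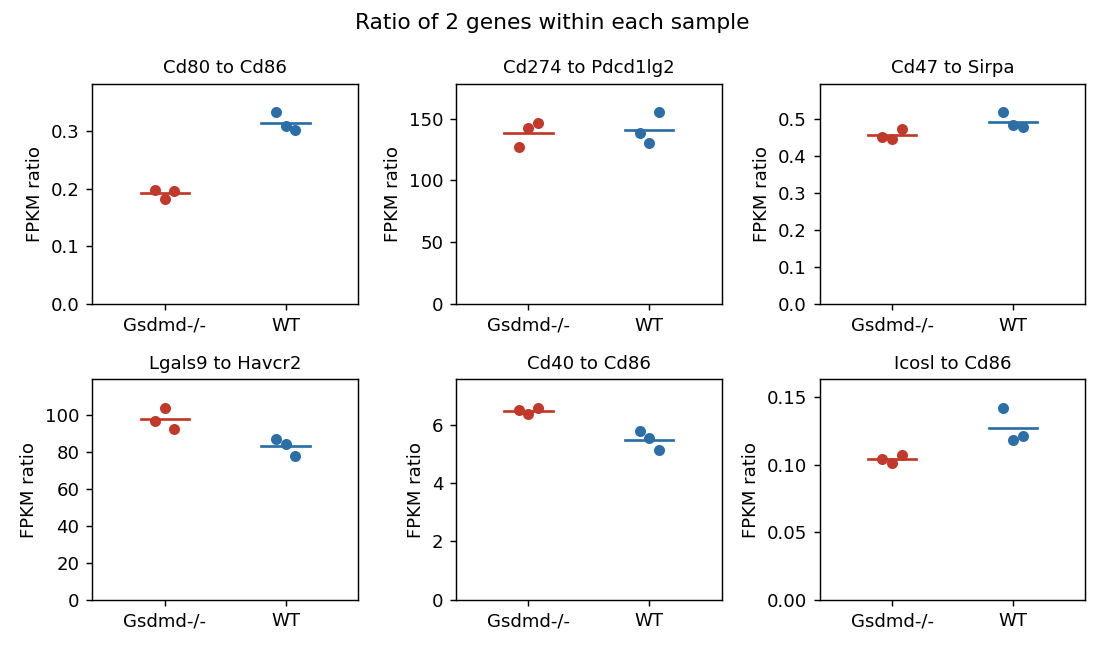
Ratio of the FPKM values of 2 genes in each Gsdmd-/- (red, left) and WT (blue, right) sample, with a line at the mean and axes from 0. Cd80 to Cd86 shows the widest gap, with Gsdmd-/- samples between 0.181 and 0.198 and WT samples between 0.301 and 0.332.

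Cd274, which encodes PD-L1, was the most abundant of the 10 in WT samples, above 98.7% of tested genes by mean level. It lies on chromosome 19 at 29362107 to 29388095. Its level was 516, 513 and 535 FPKM in Gsdmd-/- samples and 611, 605 and 619.6 FPKM in WT samples, with no overlap. It averaged 521 ± 11.9 FPKM in Gsdmd-/- and 612 ± 7.21 FPKM in WT samples (SD, n = 3 each), a ratio of means of 0.852. As deposited, Cd274 was lower, with a log2 change of -0.23 (SE 0.0255, limma, adjusted p = 4.68e-06). The trend at its length and GC was -0.22, nearly the whole of that change. After its removal the log2 change was -0.01 (adjusted p = 0.619), and with the trend fitted on median transcript lengths 0.15 (adjusted p = 4.97e-05). Cd274 has 1 coding transcript in the annotation. Its own length was therefore the same in both fits, and only the trend across genes differed. In TPM it was -0.45 (adjusted p = 1.06e-09) and after quantile normalization -0.60 (adjusted p = 1.98e-08). A lower level of PD-L1 transcript therefore held under these scalings but not relative to genes of like length and GC content. The annotated span of Cd274 overlaps that of Plgrkt over 5186 bases. Plgrkt, named for this overlap and outside the naming rule, rose by 0.45 on the log2 scale, and whether their fragments were kept apart by strand was not stated.

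Pdcd1lg2, which encodes PD-L2, lies next to Cd274 at 29410919 to 29472927 and was among the least abundant. It was at 4.07, 3.61 and 3.67 FPKM in Gsdmd-/- samples, against 4.41, 4.66 and 4.0 FPKM in WT samples. The highest Gsdmd-/- sample lay above the lowest WT sample. About 133 and 154 fragments stood behind the means, the fewest of the 10 genes. The log2 change was -0.16 (SE 0.0698, limma) at an adjusted p of 0.04999, at the threshold itself. It did not pass without Gsdmd-/- replicate 2 (adjusted p = 0.141), Gsdmd-/- replicate 3 (0.115), WT replicate 1 (0.11) or WT replicate 2 (0.169). Nor did it pass after quantile normalization (-0.07, adjusted p = 0.366), with a pseudocount of 0.1 (adjusted p = 0.0513) or with no filter (adjusted p = 0.0823). Relative to the trend it fell by 0.38 (adjusted p = 0.000595), and by 0.22 at the median transcript length (adjusted p = 0.0158). The ratio of Cd274 to Pdcd1lg2 was 127, 142 and 146 in Gsdmd-/- and 138, 130 and 155 in WT samples. These overlapped (log2 difference -0.03, exact permutation p = 0.9).

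Lgals9, which encodes galectin-9, was higher in Gsdmd-/- samples as deposited. It lies on chromosome 11 at 78962979 to 78984924. It was at 547, 568 and 518 FPKM in Gsdmd-/- samples and at 427, 475 and 439.9 FPKM in WT samples. The genotypes did not overlap, although samples within each were spread more widely than for Cd40. It rose by 0.28 on the log2 scale (SE 0.0424, limma, adjusted p = 8.9e-05), a ratio of means of 1.22. Its transcript is the shortest of the 10, at 1586 bases, and the trend there was 0.32. After its removal the log2 change was -0.03 (adjusted p = 0.439), after quantile normalization -0.04 (adjusted p = 0.38) and in TPM 0.06 (adjusted p = 0.112). Lgals9 still rose relative to the trend at the median transcript length, by 0.11 (adjusted p = 0.0237).

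Havcr2 (chromosome 11, 46454931 to 46481255), which encodes TIM-3, showed no detectable difference as deposited. It was at 5.64, 5.46 and 5.58 FPKM in Gsdmd-/- samples and at 4.91, 5.62 and 5.64 FPKM in WT samples. WT replicate 1 was the lowest of the 6, and the others were nearly equal. The log2 change was 0.04 (95% interval -0.099 to 0.179, limma, adjusted p = 0.579), and -0.015 without WT replicate 1. It passed the threshold in 1 of the 16 alternatives, relative to the trend at the median transcript length (0.28, adjusted p = 0.00283). Relative to the trend at the longest transcript it did not (0.125, adjusted p = 0.098). Galectin-9 message per TIM-3 message was 96.9, 104 and 92.8 in Gsdmd-/- samples and 87, 84.5 and 78 in WT samples (log2 difference 0.24, exact permutation p = 0.1). Relative to the trend that difference was -0.17.

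Sirpa (chromosome 2, 129591042 to 129632228), the inhibitory receptor for CD47, changed less as deposited than the other abundant genes of the 10, an order that did not hold in TPM or with the trend removed. It was at 281, 282 and 285 FPKM in Gsdmd-/- samples, against 289.6, 292 and 298 FPKM in WT samples. The genotypes did not overlap but differed by little (log2 change -0.05, 95% interval -0.107 to 0.002, limma, adjusted p = 0.0731). It passed the threshold in TPM (-0.28), after quantile normalization (-0.29) and with median ratio scaling (-0.08, adjusted p = 0.0157). The sign was turned, and the threshold not passed, relative to the trend at the median transcript length (0.05, adjusted p = 0.0675). At the longest transcript it was not turned, and the threshold was not passed either (-0.04, adjusted p = 0.106). Sirpa belongs to a family with close relatives, yet none of the 50-base stretches of its longest transcript occurred in a transcript of another gene. Its relative Sirpb1b was at 2.08 FPKM in Gsdmd-/- and 1.54 FPKM in WT samples.

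Cd47 (chromosome 16, 49851328 to 49912503), the ligand of SIRP alpha, was at 127, 126 and 135 FPKM in Gsdmd-/- samples and at 150.3, 141 and 142 FPKM in WT samples. The genotypes did not overlap. As deposited, Cd47 was lower, with a log2 change of -0.16 (SE 0.0357, limma, adjusted p = 0.00136), a ratio of means of 0.894. Its direction turned on the length assumed. Relative to the trend at its longest transcript (5250 bases, trend value -0.48) it was higher by 0.32 (adjusted p = 1.62e-06). Relative to the trend at its median coding transcript it was lower (-0.17, adjusted p = 0.000752). The annotation lists 9 coding transcripts of Cd47 and only a single value was deposited, so the form present cannot be read from it. Cd47 per Sirpa was 0.451, 0.448 and 0.475 in Gsdmd-/- and 0.519, 0.485 and 0.478 in WT samples (log2 difference -0.11, exact permutation p = 0.1), and 0.36 with the trend removed.

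**Figure D3:**
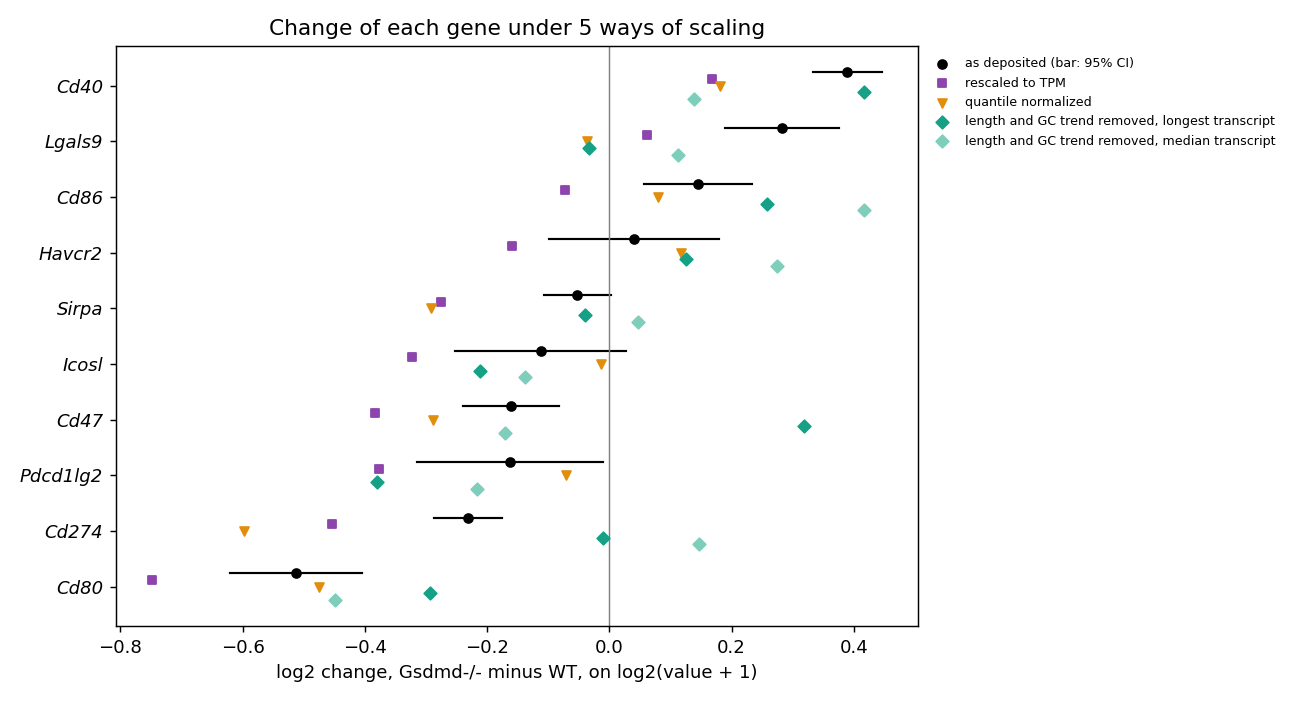
Log2 change (Gsdmd-/- minus WT, on log2(value + 1)) of the 10 genes as deposited (black, with 95% interval) and under 4 other scalings. All 5 points lie right of 0 for Cd40 and left of 0 for Cd80, Pdcd1lg2 and Icosl, and they straddle 0 for Cd47, Cd274, Lgals9, Cd86, Havcr2 and Sirpa.

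**Figure D4:**
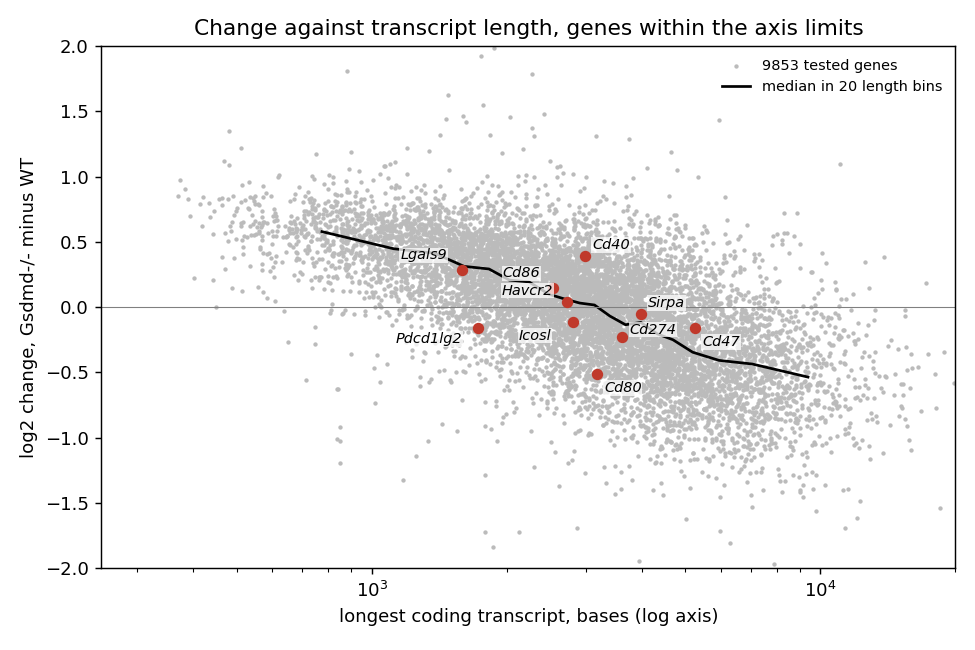
Log2 change (Gsdmd-/- minus WT) against the length of the longest coding transcript (log axis) for 9853 tested genes (grey), with the median in 20 length bins (black) and the 10 genes (red). Lgals9 and Cd274 lie close to the line, Cd40 lies above it and Cd80 and Pdcd1lg2 below it.

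Other ligands and receptors through which antigen-presenting cells act on T cells moved both ways. Of 31 such genes 21 were tested, 9 rose and 10 fell, beside 77.5% of all genes changed, with a median log2 change of -0.08. Once the trend was taken out, the counts were 5 and 10, beside 61.3% of all genes, and in TPM 3 and 13, beside 76%. On the log2 scale, Fgl2, a prothrombinase that also acts on T cells, fell by 0.997, Tnfsf8 (CD30 ligand) fell by 1.32 and Slamf7, a receptor of immune cells, fell by 0.59. Among the TNF family ligands, which were singled out after their values were seen, Tnfsf4 (OX40 ligand) averaged 11.5 FPKM in Gsdmd-/- and 22.8 FPKM in WT samples. Tnfsf15 (TL1A) averaged 3.77 and 7.14 FPKM and Tnfsf18 (GITR ligand) 1.17 and 2.60 FPKM. These 3 fell, and did so relative to the trend too (log2 changes -0.94, -0.55 and -0.59). Tnfsf9 (4-1BB ligand) rose by 0.20 as deposited and had a log2 change of -0.20 with the trend removed. Tnfsf14 (LIGHT) went the other way from these, up by 0.54 as deposited and by 0.19 with the trend removed (limma, adjusted p = 0.0359). Lgals1 and Lgals3, galectin genes also singled out after their values were seen, rose by 0.81 and 0.42 as deposited. Their log2 changes were 0.22 and -0.02 with the trend removed.

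Of 9 listed lymphocyte receptors that bind these or related ligands, 7 did not pass the filter on low values, among them Pdcd1, Icos and Lag3, which averaged 0.25 FPKM or less in both genotypes. The 2 tested were Cd28 and Tnfrsf9, and Tnfrsf9 averaged 2.73 FPKM in Gsdmd-/- and 2.61 FPKM in WT samples. Cd28, a T cell receptor for CD80 and CD86, averaged 5.82 FPKM in Gsdmd-/- and 7.70 FPKM in WT samples (log2 change -0.35, adjusted p = 0.000279), and its change was 0.06 with the trend removed.

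Genes of the CD40 signalling chain changed in both directions. Of 13 tested 5 rose and 6 fell, beside 77.5% of all genes changed, with a median log2 change of -0.03. After trend removal 2 rose and 4 fell, beside 61.3%, and in TPM 3 rose and 7 fell, beside 76%. Chuk, a kinase of the NF-kB pathway, fell by 0.83, Tnfaip3, which limits NF-kB signalling, fell by 0.47, and Nfkbia, the NF-kB inhibitor, rose by 0.34 on the log2 scale (-0.01 with the trend removed). The TRAF adaptors, outside the naming rule, did not move together. Traf1 and Traf2 had log2 changes of 0.19 and 0.33 as deposited and 0.14 and 0.21 with the trend removed. Traf6 and Traf3 fell by 0.56 and 0.34 as deposited, and their changes did not pass with the trend removed (-0.11 and -0.05). Traf5 did not pass as deposited (0.07) and had a log2 change of -0.26 with the trend removed.

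Of 16 genes that govern PD-L1 transcription or stability, 3 rose and 9 fell, beside 40.6% and 36.9% of all tested genes, with a median log2 change of -0.22. The counts were also 3 and 9 with the trend removed, beside 30% and 31.4% of all genes, and 2 and 13 in TPM, beside 25% and 51%. Hif1a, the oxygen-regulated transcription factor, averaged 12.1 FPKM in Gsdmd-/- and 28.4 FPKM in WT samples and fell by 1.16 on the log2 scale. Jak2, the kinase of the interferon gamma receptor, fell by 0.61, and Stub1, a ubiquitin ligase that acts on PD-L1, rose by 0.74. Their log2 changes with the trend removed were smaller, -0.71 for Hif1a, -0.20 for Jak2 and 0.30 for Stub1. Cmtm6, which protects PD-L1 from degradation and was named after its value was seen, fell by 0.55 as deposited and had a log2 change of -0.50 relative to the trend.

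A list built around SIRP alpha and CD47 also holds inhibitory receptors outside that axis, Lilrb4a among them. Of its 11 tested genes 4 rose and 3 fell, beside 77.5% of all genes changed, with a median log2 change of -0.002. The counts were 4 and 4 relative to the trend (median -0.15), beside 61.3%, and in TPM 3 rose and 6 fell, beside 76%. Fyb, an adaptor of immune cells, fell by 0.83, Lilrb4a, an inhibitory receptor, rose by 0.34, and Tyrobp, the adaptor of activating receptors, rose by 0.38 (-0.28 with the trend removed). Ptpn6, the phosphatase SHP-1 recruited by SIRP alpha, averaged 173 FPKM in Gsdmd-/- and 178 FPKM in WT samples. Its log2 change did not pass as deposited (-0.045, limma, adjusted p = 0.13) but did with the trend removed (-0.29, adjusted p = 1.27e-06). Among 8 tested partners of TIM-3 and galectin-9, 3 rose and 3 fell, beside 77.5% of all genes changed, with a median log2 change of -0.02. The counts were 1 and 3 with the trend removed, beside 61.3%, and 0 and 6 in TPM, beside 76%. The sheddases Adam10 and Adam17, which cleave TIM-3 from the cell surface, fell by 0.90 and 0.63 on the log2 scale, and by 0.48 and 0.30 with the trend removed. Cd44, a surface glycoprotein bound by galectin-9, fell by 0.48 (-0.04 with the trend removed).

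**Figure D5:**
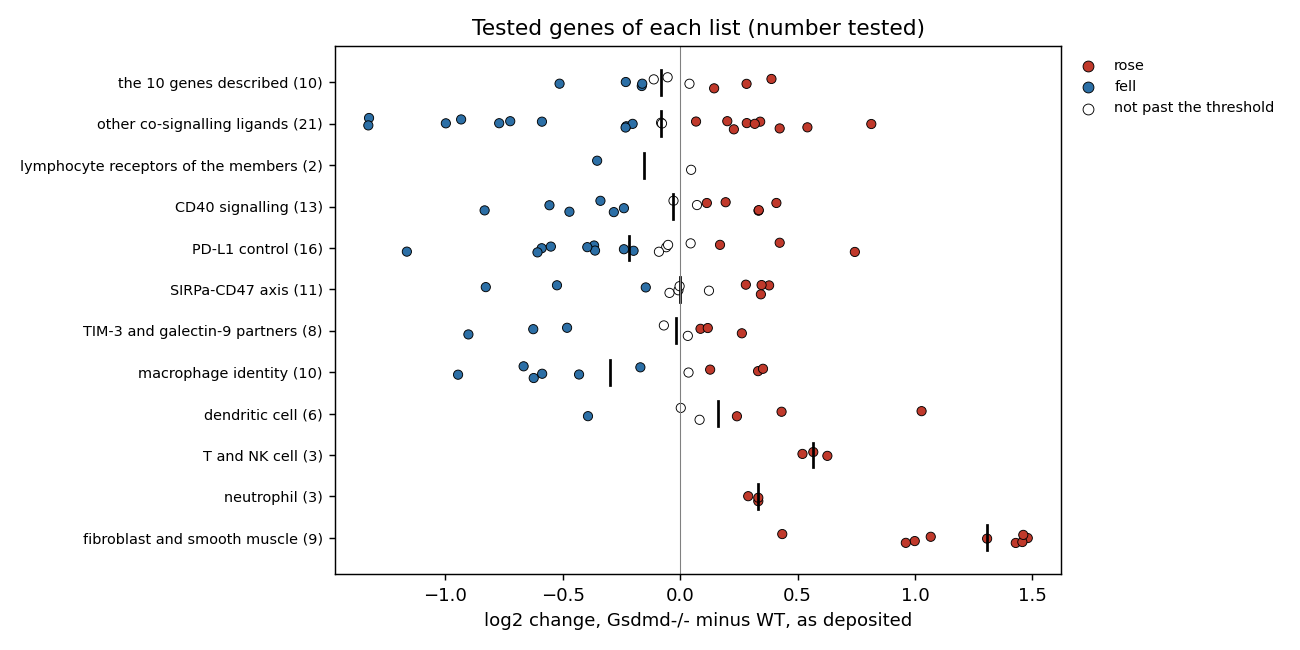
Log2 change (Gsdmd-/- minus WT, as deposited) of each tested gene in the 10 genes described, in lists of related genes and in marker lists, coloured by call, with a bar at the list's median. The 10 genes, the other co-signalling ligands and the signalling lists spread to both sides of 0, and the 9 tested fibroblast and smooth muscle markers lie to the right.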

How the data were processed

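RNA of sorted colon macrophages was sequenced on the BGISEQ-500, per the labels' protocols. The submitters' processing notes list Bowtie2 (2.2.5) and GRCm38.p6. The quantifier, its annotation and its use of strand were not stated. The deposited tables hold 1 value per gene and sample with no stated unit. They were read as FPKM because the authors' sums per sample differ (476271 to 565388) and the steps of low values shrink as transcript length grows. Depth was estimated from those steps.

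The test was limma (3.58.1, under R 4.3.3, trend and robust settings) for genes reaching 1 FPKM in 3 or more samples, on log2(FPKM + 1), Gsdmd-/- minus WT, two-sided, with Benjamini-Hochberg adjustment over all 10005 tested genes. This scale understates changes of low genes. Groups came from the genotype labels. The length and GC trend was a spline fit (5 degrees of freedom for each property) per sample on GENCODE M21 coding transcripts, subtracted from the log2 values. Ratios used FPKM without a pseudocount and an exact permutation test. The fit and the trend removal were tested on simulated data.

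Each library counted as 1 sample. On the estimated depths, libraries of a genotype differed by more than counting noise (chi-square per degree of freedom 1.68 to 2.63 within and 32.0 to 45.3 between genotypes). That excess can be technical, so it does not show that the libraries came from separate mice. The 10 genes, the related lists and the tests were chosen with earlier results of these data known. The genes named are the 10, Gsdmd, the 3 tested genes with the smallest p of each related list that passed the threshold, and marker genes. Most others are said to be outside that rule or chosen after their values were seen. Sirpb1b, Ptpn6, Tnfrsf9, Pdcd1, Icos and Lag3 also lie outside it, and all of these but Ptpn6 are given by level only. Cd40lg, Ctla4, Sirpb1c and 5 marker genes were not analysed here. The alternatives were another pseudocount (0.1), no filter, a stricter one (5 FPKM), TPM, median ratio and quantile scaling, the trend removal, the replicate block and leaving out each sample. The trend on the median transcript length was added after seeing the data.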

Additional observations from a re-analysis of the deposited data

How the results depend on the processing

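Cd40 rose and Cd80 fell in all 16 alternatives, with log2 changes of 0.14 to 0.42 and -0.75 to -0.29. Over all genes, 4059 rose and 3693 fell as deposited. In TPM, which moved the median log2 change of all genes to -0.17, 2498 rose and 5104 fell. Of the 10 genes, 3 rose as deposited, 1 in TPM, 1 after quantile normalization and 5 with the trend on the median transcript length, a setting chosen after seeing the data. Among the 10 genes and those named by the rule, log2 changes that turned sign were those of Cd86 (-0.073) and Havcr2 (-0.16) in TPM, and of Lgals9 after quantile normalization (-0.037). With the length and GC trend removed, with or without the replicate block, they were those of Lgals9 (-0.033), Cd47 (0.318), Cd28 (0.063), Nfkbia (-0.013) and Tyrobp (-0.28), and with the median length those of Cd274 (0.15), Sirpa (0.047) and Cd28 (0.18). Tyrobp was at -0.054 after quantile normalization. Of the genes chosen after their values were seen, Tnfsf9 (-0.20) and Lgals3 (-0.02) turned sign with the trend removed, as did the adaptor Traf5 (-0.26). The differences of 3 ratios turned sign with the trend removed, Cd274 to Pdcd1lg2 (0.41), Cd47 to Sirpa (0.36) and Lgals9 to Havcr2 (-0.17). Leaving out 1 sample at a time, the first of these ran from -0.086 to 0.041, and the log2 change of Havcr2 from -0.015 to 0.069. No ratio was computed with the trend on the median transcript length. The cause of these shifts was not tested.

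The same replicate numbers did not pair the samples: deviations of same-numbered samples correlated at -0.082, 0.132 and 0.014. With the replicate block 4095 genes rose and 3706 fell, and no call among the 10 genes changed. Of 416 counts over the related lists, the marker lists and the alternatives, 385 stayed within 1.5 times and 31 did not. Counts that were 0 in both settings are among the 385, so that number overstates stability. Counts moved with the scaling: other co-signalling ligands that rose went from 9 as deposited to 3 in TPM. CD40 signalling genes that rose went from 5 to 2 with the trend removed. Pdcd1lg2, Icosl and Havcr2, with means of 133 to 308 fragments, limit what depth can show.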
